A study of Mus musculus with 9 samples.

Results

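Interferon-stimulated genes (ISGs) are genes that cells switch on when interferon binds its receptor, and 39 of them were followed here in spleens with lymphoma and in normal mouse spleens. The 39 genes were taken by name from a list drawn up with earlier results of these data known, and a probe set counted for a gene only where the platform annotation gave that gene's symbol alone. By this rule 37 of the 39 genes were measured, on 63 of the 45037 probe sets, among 18193 genes in all. The only probe set of Isg15 is shared with another symbol, and Ifi44 had none of its own, so neither was analysed here. Where a gene had several, the brightest on average across the 9 arrays stood for it.

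The study's 5 splenic lymphomas, called lymphoma 1 to 5 here, arose in Sca1-MALT1 transgenic mice. They were set against 4 spleens of healthy wild-type mice, called wild-type spleen 1 to 4. MALT1 is a protease and scaffold through which antigen receptors activate NF-kB. The name of the transgene refers to Sca1, the surface protein of blood stem and progenitor cells encoded by Ly6a. The sources used here state no age, sex or strain, and do not say that each sample came from its own animal, so p-values reflect only the variation among these 9 samples, which may be technical. Each sample was total RNA of frozen tissue on 1 Affymetrix array, and values are log2 levels from RMA, the standard summary of the probes of a probe set.

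Interferons work through a short chain of proteins. Type I interferons (alpha and beta) bind IFNAR1 and IFNAR2, the kinases JAK1 and TYK2 are activated, and a complex that holds STAT2 and IRF9 binds a DNA motif called the ISRE. Interferon gamma, made by T and NK cells, binds another receptor and acts mainly through a motif called GAS. Most genes followed here are classic targets of type I interferon, whereas the guanylate binding proteins (GBPs), large GTPases that attack intracellular pathogens, are strongly induced by interferon gamma. In the spleen macrophages, dendritic cells and lymphocytes all respond to interferon, and plasmacytoid dendritic cells are a main source of type I interferon.

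Promoters of 28 of the 37 measured genes were in the RefSeq promoter table (GRCm38.p6), each running from 250 bases before to 50 bases after a start site. The core of the ISRE was searched as GAAA, any 2 bases and GAAA again, and on the other strand as TTTC, any 2 bases and TTTC. The GAS motif was searched as TTCNNNGAA (N for any base), which reads the same on both strands. Matches were allowed to overlap. An ISRE match lay in the promoters of 13 of these 28 genes (46.4%), against 3.99% of the 27025 genes in the table. A GAS match lay in 8 of the 28 (28.6%), against 9.55% of all genes. All 3 GBP genes held an ISRE match, as did 10 of 25 type I targets. The sequences that follow are the 250 bases before the start of Rsad2 (chr12:26456453-26456702, minus strand), Ifit1 (chr19:34640639-34640888, plus strand) and Gbp2 (chr3:142620413-142620662, plus strand), given 5′ to 3′ with the ISRE matches in capitals. Rsad2 had the largest difference of the 37 genes. All 3 carry this motif near the start, so they do not represent the genes without a match. In lymphoma Rsad2 and Gbp2 had positive differences from wild type and Ifit1 a negative one, none with a limma adjusted p under 0.05. Among the 37 genes only Adar passed that threshold, and no promoter of Adar held an ISRE match. The promoters of Adar are not shown.
Rsad2: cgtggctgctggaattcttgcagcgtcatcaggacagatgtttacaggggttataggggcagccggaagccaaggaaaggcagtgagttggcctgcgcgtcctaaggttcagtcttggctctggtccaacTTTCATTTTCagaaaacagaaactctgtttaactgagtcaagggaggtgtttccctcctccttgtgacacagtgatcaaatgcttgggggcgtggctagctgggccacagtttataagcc
Ifit1: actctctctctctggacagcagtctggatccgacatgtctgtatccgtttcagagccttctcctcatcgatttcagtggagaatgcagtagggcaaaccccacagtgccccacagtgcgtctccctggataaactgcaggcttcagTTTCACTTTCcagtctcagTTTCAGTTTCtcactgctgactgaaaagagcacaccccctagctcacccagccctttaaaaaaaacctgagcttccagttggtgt
Gbp2: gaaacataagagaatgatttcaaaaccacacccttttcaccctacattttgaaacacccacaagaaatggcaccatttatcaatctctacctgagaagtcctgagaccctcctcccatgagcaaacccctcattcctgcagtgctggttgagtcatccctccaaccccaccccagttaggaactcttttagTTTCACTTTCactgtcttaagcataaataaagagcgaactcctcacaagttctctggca
The matches began -120 bases from the start site in Rsad2, -104 and -85 in Ifit1 and -59 in Gbp2. Across the 28 genes the median log2 difference between lymphoma and wild type was 0.099 for the 13 with an ISRE match and -0.11 for the 15 without. Of the 13, 7 had positive differences and 6 negative ones, and of the 15, 4 and 11. All 3 GBPs were among the 13. Among type I targets alone the order was reversed, with a median of -0.19 for the 10 with an ISRE match and -0.11 for the 15 without. For GAS the medians were -0.11 for the 8 genes with a match and -0.10 for the 20 without.

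The ISGs did not move as a block. In the comparison of lymphoma with wild type, limma called 1 of the 37 genes at an adjusted p under 0.05, Adar, which fell, and it called 0 higher. Among all genes the percentage called was 0.715% (0.308% lower and 0.407% higher). At an unadjusted p under 0.05 there were 6 ISGs with higher values and 6 with lower ones, against 6.69% and 8% of all genes (14.7% together). The groups did not overlap for 4 ISGs (Adar, Oasl1, Mx2 and Trim25), all lower in lymphoma, against 7.33% of all genes in either direction (3.29% higher, 4.04% lower). Of the 37 differences 25 were negative and 12 positive, where 50.3% of all genes were positive. Their median was -0.11 and their mean 0.028, of opposite sign, and the median of all genes was 0.0012. By probe set, limma called 1 of 63, lower, against 0.486% of all probe sets, and the groups did not overlap for 1 higher and 7 lower, against 6.47% (2.39% higher, 4.08% lower). All 3 GBPs were positive with a median of 0.76, whereas 25 of the 34 type I targets were negative with a median of -0.14. The GBP median was 0.20 with the level of the 18S control probe sets as a covariate, and that level was highest in lymphoma 2, where the GBPs also peaked. With 1 array left out the median over all 37 ran from -0.14 to -0.064.

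**Figure D1:**
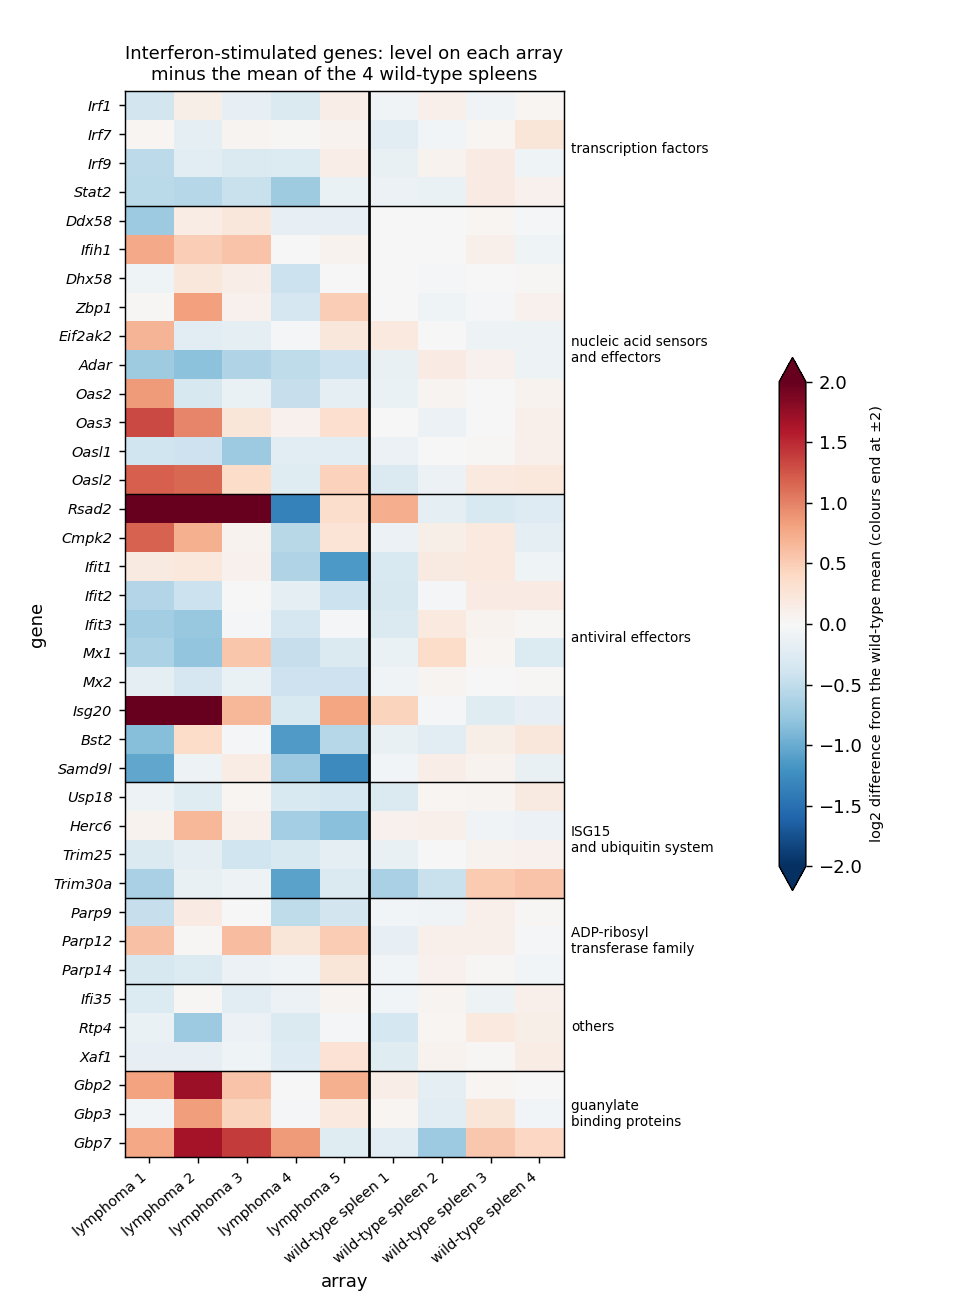
Log2 level of each of the 37 measured genes on each of the 9 arrays (columns, 5 lymphomas and then 4 wild-type spleens) minus the mean of the 4 wild-type spleens, with genes grouped by role and colours ending at ±2. Rsad2 and Isg20 are far above the wild-type mean in lymphomas 1 and 2, Gbp2 and Gbp7 are highest in lymphoma 2, and most other rows are pale or blue in lymphoma.

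The arrays themselves set a limit. Lymphomas 1 and 2 stood apart by erythroid genes. The mean level of 9 erythroid markers, relative to the wild-type mean, was 4.21 and 3.95 there and -1.34 to 1.07 in lymphomas 3 to 5. It was 1.26 in wild-type spleen 1 and -0.49 to -0.35 in the other wild-type spleens. The level of 7 neutrophil markers was 5.90 in lymphoma 1, 2.57 in lymphoma 2, 2.65 in lymphoma 5 and -0.0022 to 1.66 in lymphomas 3 and 4. In wild-type spleens it was -0.36 to 0.39. The level of 4 proliferation markers was -0.36 to 0.32 in wild-type. It was -1.50 in lymphoma 4 and -0.053 to 0.061 in lymphomas 3 and 5. Lymphomas 1 and 2 had the highest levels, 1.77 and 1.67. They also had the lowest level of 7 T-cell markers, -1.38 and -1.41, with -0.35 to 0.045 in lymphomas 3 to 5, against -0.079 to 0.10 in wild-type. B-cell genes were present in every sample, with Ms4a1 at 13.02 to 14.17 in lymphoma and 13.74 to 13.90 in wild-type. All 7 measured B-cell markers had negative differences with 0 calls, and their level was -1.28 to -0.22 in lymphoma, against -0.057 to 0.050 in wild-type. In bulk tissue, more cells of a type and more RNA per cell cannot be told apart.

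All 4 transcription factors of the pathway had negative differences and limma called 0 of them. Stat2, the signal transducer that only type I and type III interferons use, stood at 8.21, 8.18, 8.30, 8.05 and 8.63 in lymphomas 1 to 5, against 8.64, 8.63, 8.91 and 8.84 in wild-type spleens 1 to 4. All lymphomas but number 5 lay below every wild-type spleen, and lymphoma 5 was level with the lowest of them. The difference was -0.48 ± 0.12 (limma SE, n = 5 and 4), with a limma adjusted p of 0.117, so Stat2 did not pass. Its second probe set differed by -0.30 (limma adjusted p 0.262 over all probe sets).

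Irf7, the factor that amplifies type I interferon production and is itself a sensitive interferon target, was nearly identical in both groups. It stood at 9.17, 8.93, 9.18, 9.15 and 9.20 in lymphoma and 8.91, 9.07, 9.16 and 9.37 in wild-type. The difference was -0.0031, with a 95% interval from -0.24 to 0.23 and a limma adjusted p of 0.992. Irf9, the DNA-binding partner of STAT2, differed by -0.23 and Irf1, which both interferon types induce, by -0.11, with limma adjusted p-values of 0.455 and 0.705.

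Adar was the called gene. It encodes the enzyme that edits adenosine to inosine in double-stranded RNA and so keeps the cell's own RNA from setting off RNA sensors. Its level was 10.06, 9.94, 10.16, 10.26 and 10.34 in lymphoma, against 10.62, 10.93, 10.84 and 10.67 in wild-type. Every lymphoma lay below every wild-type spleen. The difference was -0.61 ± 0.10 (limma SE, n = 5 and 4), or 0.654-fold, with a limma adjusted p of 0.0369. The call was lost with any of the 4 wild-type spleens or lymphoma 1, 3 or 5 left out (limma adjusted p up to 0.155 over the 9 such fits), while the difference stayed between -0.66 and -0.56 in those fits. With the mean of its 3 probe sets the difference was -0.38 (limma adjusted p 0.0689). The other probe sets of Adar gave -0.46 without overlap (limma adjusted p 0.0989 over all probe sets) and -0.059 with overlap (0.839), so they disagree on the size.

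The other sensors and RNA-binding effectors spread on both sides of zero. Of the 10 genes in this group 5 were positive and 5 negative, and limma called 0 besides Adar. Ifih1, which encodes the long double-stranded RNA sensor MDA5, differed by 0.38 and its relative Ddx58, which encodes RIG-I, by -0.13, with limma adjusted p-values of 0.297 and 0.766. Dhx58, a regulator of both, differed by -0.037, the sensor of Z-form nucleic acid Zbp1 by 0.22 and the translation-blocking kinase gene Eif2ak2 by 0.099. For Dhx58, Zbp1 and Eif2ak2 the probe sets of a gene had differences of both signs.

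The oligoadenylate synthetase family, whose active members make the second messenger that switches on RNase L, was split as well. Oas3 had 7.76, 7.41, 6.67, 6.53 and 6.77 in lymphoma and 6.44, 6.31, 6.44 and 6.54 in wild-type, and Oasl2 had 8.28, 8.23, 7.45, 6.84 and 7.54 against 6.80, 6.96, 7.29 and 7.29. In both genes lymphomas 1 and 2 were above all other arrays and the groups overlapped. For Oas3 these 2 were also the only arrays above the median of all values (6.92), so the size of its difference is uncertain. The differences of Oas3 and Oasl2 were each 0.59, with limma adjusted p-values of 0.294 for Oas3 and 0.375 for Oasl2. Oasl1, a homologue that restrains Irf7 translation in mice, went the other way without overlap, at 7.69 to 8.21 in lymphoma and 8.30 to 8.52 in wild-type (difference -0.39, limma adjusted p 0.158). Oas2 differed by -0.049 and was highest in lymphoma 1, at 9.13, against 7.82 to 8.14 in the other lymphomas.

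Among the antiviral effectors, Rsad2 had the largest difference of all 37 genes and the widest spread. Rsad2 encodes viperin, an enzyme that makes a chain-terminating nucleotide from CTP. Its level was 13.54, 12.48, 11.67, 7.82 and 9.52 in lymphomas 1 to 5, against 9.90, 9.00, 8.87 and 8.92 in wild-type spleens 1 to 4. Lymphomas 1, 2 and 3 lay above every wild-type spleen, lymphoma 5 lay inside their range and lymphoma 4 below it. The SD was 2.31 among lymphomas and 0.49 among wild-type spleens, and the difference of 1.83 ± 1.02 (limma SE) had a limma adjusted p of 0.452. It was 0.50 without lymphomas 1 and 2 and 0.37 with the erythroid marker level as a covariate. All 3 probe sets of Rsad2 were positive, with 0.99, 1.83 and 1.90.

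Isg20, which encodes an RNA exonuclease, had a similar course. It stood at 11.83, 11.74, 10.11, 9.15 and 10.24 in lymphoma and 9.89, 9.41, 9.21 and 9.29 in wild-type. All lymphomas but number 4 were above the wild-type spleens, and lymphoma 4 was below them. The difference was 1.16 ± 0.52 (limma SE), with a limma adjusted p of 0.337, and 0.38 without lymphomas 1 and 2. Cmpk2, the nucleotide kinase gene next to Rsad2 on chromosome 12, was also highest in lymphomas 1 and 2, at 9.57 and 9.09, with 7.83 to 8.66 in lymphomas 3 to 5 and 8.20 to 8.58 in wild-type. Its difference of 0.33 had a limma adjusted p of 0.648 and was -0.072 without lymphomas 1 and 2.

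The order of the arrays by Rsad2 and Isg20 can be set beside those by the erythroid and neutrophil markers. By Rsad2, lymphomas 1, 2 and 3 came first, then wild-type spleen 1, lymphoma 5, the other 3 wild-type spleens and, last, lymphoma 4. By Isg20, lymphomas 1, 2, 5 and 3 came first, then wild-type spleens 1, 2, 4 and 3 and, last, lymphoma 4. By the erythroid marker level, lymphomas 1 and 2 came first, then wild-type spleen 1, lymphomas 3 and 5, the other 3 wild-type spleens and, last, lymphoma 4. The proliferation markers were likewise highest in lymphomas 1 and 2 and lowest in lymphoma 4. By the neutrophil marker level, lymphomas 1, 5, 2 and 3 came first, then wild-type spleens 1 and 3, lymphoma 4 and wild-type spleens 4 and 2. Wild-type spleen 1, next after lymphomas 1 and 2 by erythroid level, was the lowest of all arrays for Oasl2, at 6.80. For Cmpk2 it stood at 8.27, where the wild-type spleens ran from 8.20 to 8.58. The part of erythroid, neutrophil or dividing cells in the result was not tested. Lymphomas 1 and 2 were the highest arrays for Rsad2, Isg20 and Cmpk2, so fits without them lower these differences whatever the cause. The erythroid level also peaked there, so the covariate fit cannot separate it from other traits of these arrays. There were 6 ISGs (Rsad2, Isg20, Oas3, Oasl2, Cmpk2 and Gbp2) with both lymphomas 1 and 2 above the other 7 arrays, or 16.2% of the 37, against 8.84% of all genes. There were 5 (Adar, Ifit2, Ifit3, Mx1 and Parp14) with both below the other 7 arrays, or 13.5%, against 12.2% of all genes.

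The IFIT and MX families, which are standard readouts of type I interferon, had negative differences for all 5 genes, although that of Mx1 was 0.21 with the 18S level as a covariate. Ifit1, whose protein binds viral RNA lacking a self cap mark, had 8.03, 8.06, 7.94, 7.25 and 6.70 in lymphoma, against 7.55, 8.03, 8.05 and 7.77 in wild-type. Lymphomas 4 and 5 were below the wild-type range and the other 3 at its upper end. The difference was -0.25, with a 95% interval from -0.89 to 0.38 and a limma adjusted p of 0.722, and it was -0.029 without lymphoma 5. Its relatives Ifit2 and Ifit3 differed by -0.32 and -0.37 (limma adjusted p 0.329 and 0.373).

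Mx1, a GTPase gene active against influenza virus, differed by -0.33 and its neighbour Mx2 by -0.30, with limma adjusted p-values of 0.600 and 0.143. Mx2 did not overlap, at 6.91 to 7.18 in lymphoma and 7.25 to 7.38 in wild-type. Bst2, which encodes tetherin, a protein that holds budding virus to the cell and is carried by plasmacytoid dendritic cells and plasma cells, ranged from 7.55 to 9.05 in lymphoma and from 8.48 to 8.91 in wild-type (difference -0.44, limma adjusted p 0.514). Samd9l, a growth-restraining antiviral gene, had 11.06, 12.00, 12.24, 11.37 and 10.83 in lymphoma and 12.05, 12.23, 12.17 and 11.96 in wild-type. Lymphomas 2 and 3 were level with wild-type and the others were lower, and the difference of -0.60 had a limma adjusted p of 0.345.

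**Figure D2:**
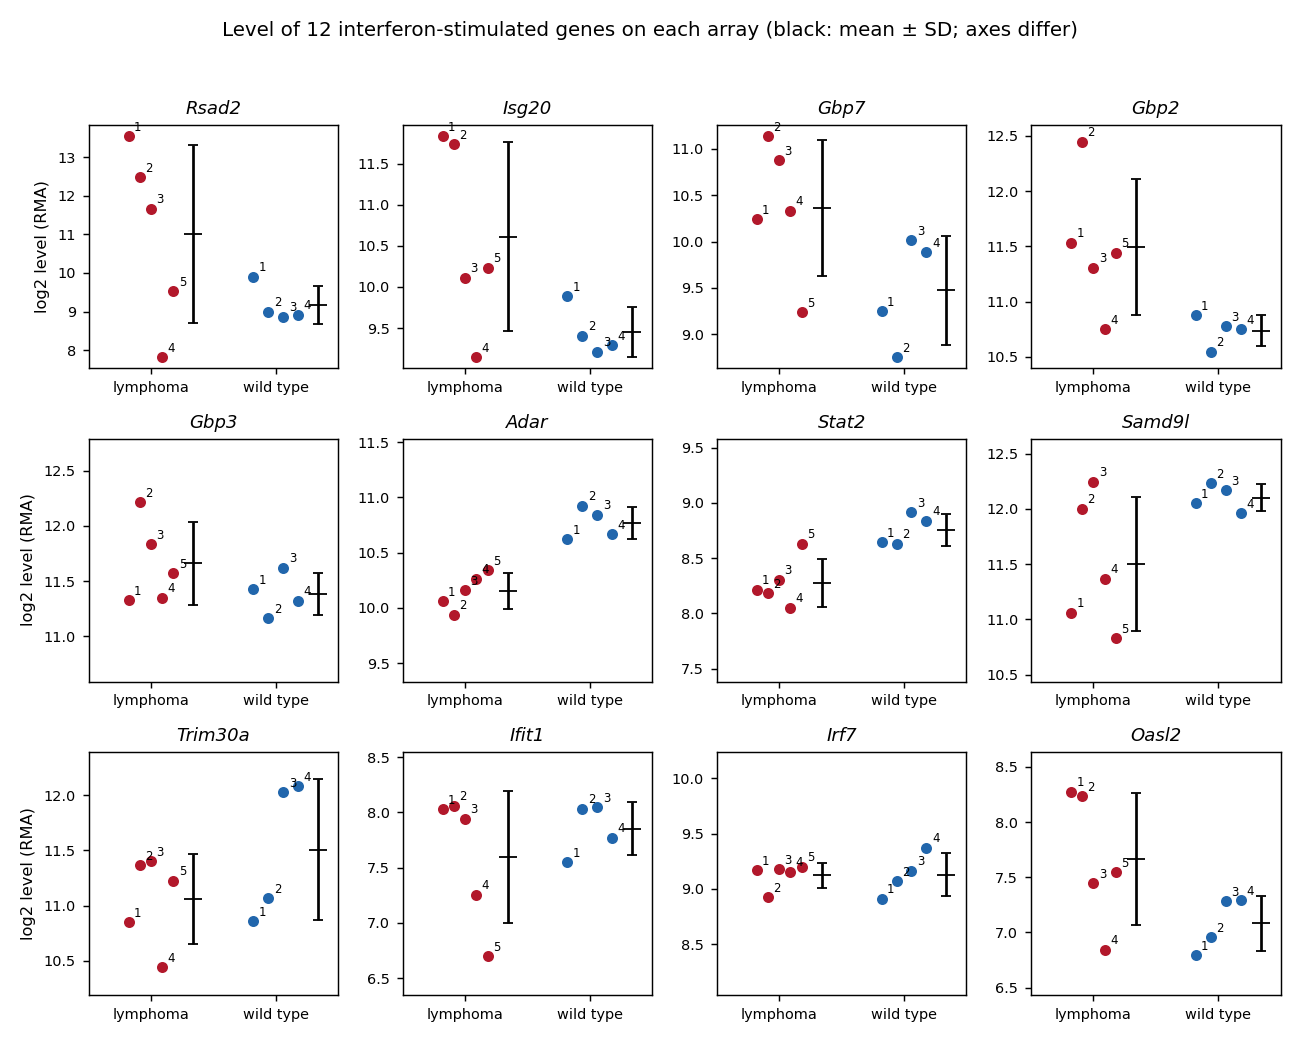
Log2 level of 12 interferon-stimulated genes on each array, with lymphomas at the left and wild-type spleens at the right of each panel, numbered by sample, and the mean ± SD in black (axes differ between panels). The 5 lymphomas run from 7.82 to 13.54 for Rsad2, lie below all 4 wild-type spleens for Adar and are close to the wild-type spleens for Irf7.

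All 4 measured genes of the ISG15 and ubiquitin system had negative differences, with 0 calls. ISG15 is a ubiquitin-like protein that is attached to other proteins, and the measured genes belong to its machinery or to the TRIM ligase family. Usp18, which removes ISG15 and shuts down IFNAR signalling, differed by -0.19 and Herc6, the mouse ligase for ISG15, by -0.14 (limma adjusted p 0.489 and 0.858). The 4 probe sets of Herc6 had differences of both signs. Trim25, a ligase in the RIG-I pathway, stood at 12.73 to 12.96 in lymphoma and 12.99 to 13.22 in wild-type with no overlap. Its difference was -0.27 (limma adjusted p 0.163), and a second probe set gave -0.38, also without overlap (0.0766 over all probe sets).

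Trim30a, a mouse gene that dampens NF-kB signalling, had 10.85, 11.37, 11.40, 10.44 and 11.23 in lymphoma, against 10.86, 11.07, 12.03 and 12.08 in wild-type. Wild-type spleens 1 and 2 were within the lymphoma range and wild-type spleens 3 and 4 above it, so the difference of -0.45 had a limma adjusted p of 0.536. Its second probe set showed no such split in wild-type, with 9.86 to 10.40 in lymphoma and 10.44 to 10.66 in wild-type and the same difference of -0.45 (limma adjusted p 0.135 over all probe sets).

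The ADP-ribosyl transferase genes gave 0 calls. Parp12, whose protein acts on stressed and infected cells' translation, was the most positive at 0.39 (limma adjusted p 0.222), with 8.37 to 8.96 in lymphoma and 8.18 to 8.45 in wild-type. Parp9 and Parp14 differed by -0.24 and -0.10. Of the remaining genes, Rtp4 differed by -0.26, Ifi35 by -0.11 and the pro-apoptotic gene Xaf1 by -0.074, with limma adjusted p-values between 0.500 and 0.830.

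All 3 GBPs had positive differences, with 0 calls by limma. At an unadjusted p under 0.05 there were 2 of the 3, against 6.69% of all genes with higher values. Gbp2 stood at 11.54, 12.45, 11.31, 10.75 and 11.44 in lymphomas 1 to 5, against 10.88, 10.55, 10.78 and 10.75 in wild-type spleens 1 to 4. Lymphoma 4 was within the wild-type range and the other 4 lymphomas above it. The difference was 0.76 ± 0.28 (limma SE), or 1.69-fold, with a limma adjusted p of 0.251. A second Gbp2 probe set did not overlap, at 9.64 to 11.09 in lymphoma and 9.19 to 9.42 in wild-type (difference 0.83, limma adjusted p 0.183 over all probe sets).

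Gbp7 had 10.24, 11.14, 10.88, 10.33 and 9.24 in lymphoma and 9.25, 8.75, 10.01 and 9.89 in wild-type. Here lymphoma 5 was at the level of wild-type spleen 1, and wild-type spleens 3 and 4 were above wild-type spleens 1 and 2. The difference was 0.89 ± 0.39 (limma SE), with a limma adjusted p of 0.334. A second Gbp7 probe set differed by 1.15 (limma adjusted p 0.125 over all probe sets). There lymphoma 5, at 9.64, lay above wild-type spleen 1, at 8.72, and just under the highest wild-type spleen, at 9.65. Gbp3 had 11.33, 12.22, 11.83, 11.35 and 11.57 in lymphoma and 11.43, 11.16, 11.62 and 11.32 in wild-type, so the groups overlapped widely (difference 0.28, limma adjusted p 0.535). With the 18S level as a covariate the differences were 0.20 for Gbp2, 0.064 for Gbp3 and 0.86 for Gbp7. In all 3 genes lymphoma 2 was the highest of the 9 arrays.

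**Figure D3:**
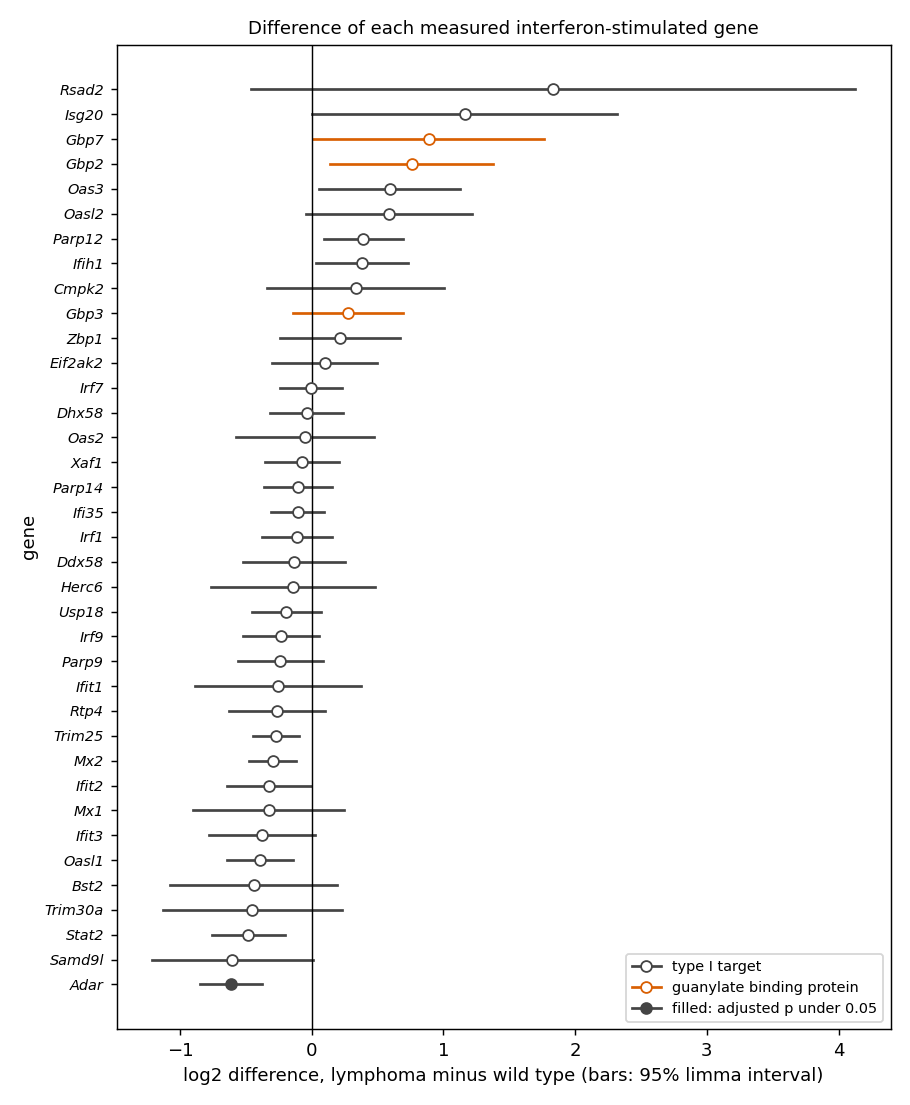
Log2 difference of each measured gene, lymphoma minus wild type, with its 95% limma interval, sorted from the most positive (top) to the most negative, GBPs in orange and type I targets in grey. The Rsad2 interval runs from -0.46 to 4.13, and Adar, the filled point at the bottom, is the only gene with an adjusted p under 0.05.

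The arrays stood in a different order by type I targets and by GBPs. The mean level of the 34 type I targets relative to the wild-type mean was 0.12, 0.14, 0.078, -0.38 and -0.086 in lymphomas 1 to 5, against -0.093, 0.013, 0.054 and 0.026 in wild-type spleens 1 to 4. Lymphoma 4 lay furthest out, and the SD was 0.22 among lymphomas and 0.065 among wild-type spleens. The level of the 3 GBPs was 0.50, 1.40, 0.81, 0.28 and 0.22 in lymphomas, against -0.015, -0.38, 0.27 and 0.12 in wild-type spleens. All 5 lymphomas were above 0, but lymphoma 5 was below wild-type spleen 3. In lymphoma 4, 26 of the 34 type I targets lay under the lowest wild-type spleen and 1 over the highest, while the percentages of all genes outside the wild-type range were 27.4% below and 30.3% above. In lymphoma 1 it was 18 below and 9 above, where 37.5% and 30.6% of all genes lay, and in lymphoma 2 it was 13 and 14, where 34.2% and 29.3% lay. In lymphoma 3 it was 11 and 11, where 24.7% and 25.1% lay, and in lymphoma 5 it was 14 and 10, where 27.3% and 31.9% lay. With the 5 genes Rsad2, Isg20, Oas3, Oasl2 and Cmpk2 left out, a choice made after their values were seen, the level of the other 29 type I targets was -0.23, -0.13, -0.041, -0.36 and -0.18 in lymphomas, against -0.14, 0.027, 0.069 and 0.040 in wild-type spleens.

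The ISGs varied more among lymphomas than among wild-type spleens, as most genes did. The SD was larger among lymphomas for 33 of the 37 (89.2%), against 78.9% of all genes. The ratio of the SDs was above 4 for 10 of the 37 (27.0%), against 18.3% of all genes. For Ddx58 and Dhx58 the wild-type spleens were almost identical, with SDs of 0.033 and 0.026, against 0.37 and 0.25 among lymphomas.

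**Figure D4:**
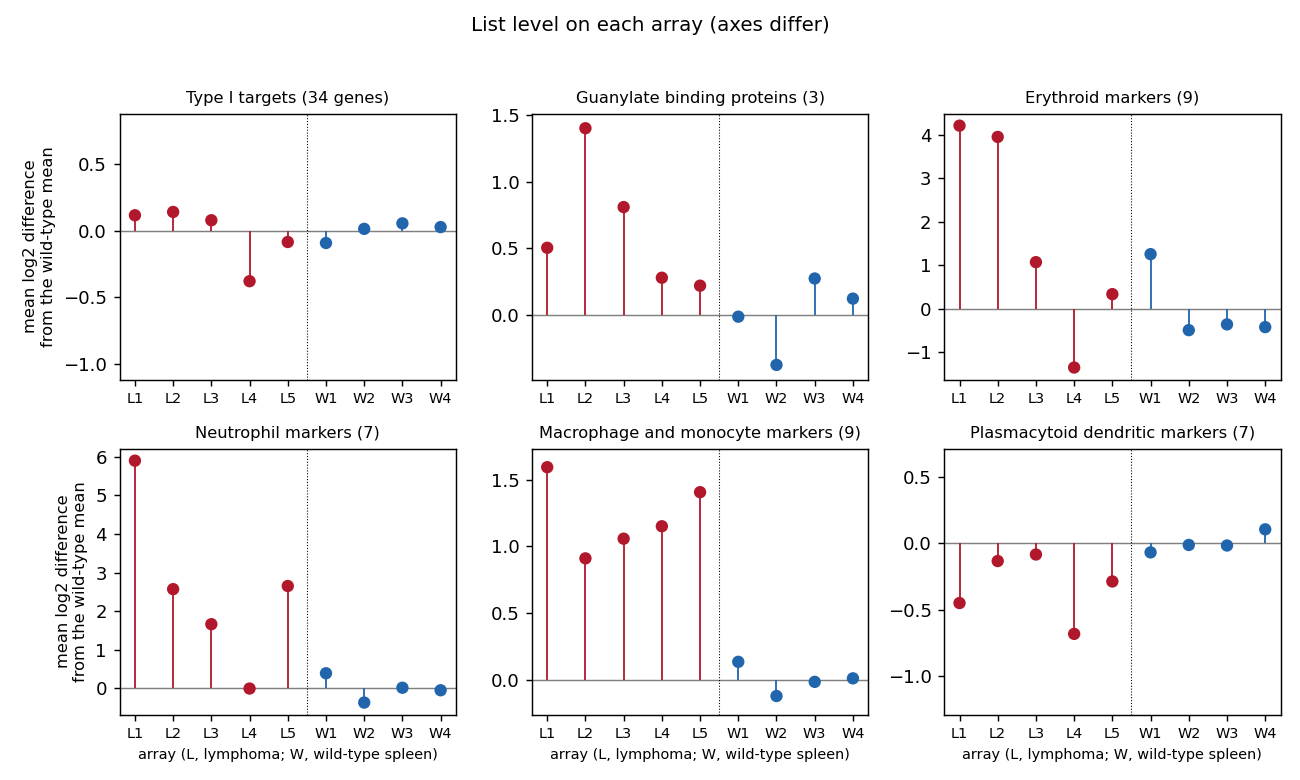
Mean log2 difference from the wild-type mean on each array for type I targets, GBPs and 4 cell-type marker lists (L, lymphoma; W, wild-type spleen; axes differ between panels). Type I targets stay between -0.38 and 0.14, GBPs reach 1.40 in lymphoma 2, and erythroid and neutrophil markers vary by several log2 units among lymphomas.

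Markers of other cell types differed between the groups. Of 9 measured macrophage and monocyte markers limma called 6 higher, against 0.407% of all genes. The level of the list was 0.91 to 1.60 in lymphoma, against -0.12 to 0.13 in wild-type. Of 7 plasmacytoid dendritic cell markers limma called 0, with 6 negative differences, and the list level was -0.68 to -0.086 in lymphoma, lowest in lymphoma 4, against -0.070 to 0.10 in wild-type. Siglech, a defining marker of these cells, stood at 6.82 to 7.24 in lymphoma and 7.43 to 7.99 in wild-type. NK markers had levels of 0.18 to 0.70 in lymphoma and -0.054 to 0.073 in wild-type. The level of the 18S control probe sets was 12.18 to 13.37 in lymphoma, highest in lymphoma 2, and 12.15 to 12.37 in wild-type, and with it as a covariate the median GBP difference was 0.20. All lymphomas but number 3 lay above every wild-type spleen by the 18S level, so that fit cannot separate the 18S level from the group. The part of these cells and of RNA quality in the ISG results was not tested.

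The interferon genes themselves were mostly too dim to judge. Of 10 ligand genes 8, among them Ifnb1 and Ifna5, lay below the median of all values on every array, so the lack of calls says little about them. Limma called 0 of the 10. With higher values at an unadjusted p under 0.05 there was 1, against 6.69% of all genes: Ifng, which encodes interferon gamma. It stood at 7.41, 7.90, 7.55, 6.97 and 8.45 in lymphoma and 7.04, 6.97, 6.68 and 6.42 in wild-type, and lymphoma 4 alone lay in the wild-type range. The Ifng difference was 0.88 (limma adjusted p 0.183), and the dim probe sets of Ifnb1, which encodes interferon beta, and Ifna5 differed by 0.14 and 0.21 (0.603 and 0.508). Of 10 receptor and kinase genes limma called 0, with Ifnar1 at -0.45 and Ifnar2 at 0.27 (limma adjusted p 0.276 and 0.376). Ly6a was not analysed here, since no probe set carries its symbol alone.

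Of 16 genes that lead to interferon production, 10 had negative differences and 6 positive ones, where 50.3% of all genes were positive. Limma called 0 of these 16, with 0 higher and 6 lower values at unadjusted p under 0.05, against 6.69% and 8% of all genes. The 6 lower ones included Tlr3, the endosomal double-stranded RNA receptor (-0.62, limma adjusted p 0.238), and Ikbke, a kinase that activates IRF3 and IRF7 (-0.49, 0.144). Of 10 further inhibitor genes of the pathway limma called 0, with 3 higher ones at unadjusted p under 0.05, against 6.69% of all genes. Their largest differences were those of Socs3, a feedback inhibitor of cytokine receptors (0.78, limma adjusted p 0.217), and the phosphatase gene Ptpn1 (0.40, 0.0945).

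Genes best known from interferon gamma were mostly positive. Of 15 measured GTPase, chemokine and related genes of this kind, 12 had positive differences (50.3% of all genes), 4 were higher without overlap (3.29% of all genes) and limma called 0. Their median difference was 0.15, and the 3 negative genes were Ciita (-0.51), Cd274 (-0.20) and Nos2 (-0.036). Among the positive ones, Irgm1 (0.012), Ido1 (0.018) and Ifi47 (0.032) hardly differed. Iigp1, a GTPase that attacks parasite vacuoles in mice, stood at 10.78, 10.85, 10.36, 9.57 and 10.75 in lymphoma and 9.32 to 9.43 in wild-type (difference 1.11, limma adjusted p 0.0775). Cxcl11, a chemokine gene that draws activated T cells, was at 7.24 to 9.97 in lymphoma and 6.44 to 7.04 in wild-type (1.35, limma adjusted p 0.251). The 3 other GBP genes measured, named to complete the family, differed by 0.82 (Gbp8, limma adjusted p 0.0936), 0.63 (Gbp2b, 0.478) and 0.10 (Gbp6, 0.892). Gbp2b was among the 4 without overlap by a narrow margin, with 6.64 in its lowest lymphoma and 6.63 in the highest wild-type spleen. For this gene only lymphoma 1, at 8.62, exceeded the median of all values (6.92).

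A wider list of interferon targets outside the 39 showed no common direction. Of 53 measured genes 27 were positive and 26 negative, with a median of 0.019, and limma called 0 (8 had higher and 11 lower values at unadjusted p under 0.05, against 6.69% and 8% of all genes). The largest differences were those of Slfn4, a gene of the Schlafen family found in myeloid cells, at 2.11 with 12.78 in lymphoma 1 and 4.94 in lymphoma 4 (limma adjusted p 0.472), and the scramblase family gene Plscr2 at 1.42 (0.0867). Plscr2 lay below the median of all values on every array, so the size of its difference is uncertain.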

How the data were processed

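RNA from 5 lymphomas and 4 wild-type spleens was hybridised to Affymetrix arrays, 1 per sample. The deposited table holds log2 values that the authors made with RMA, according to the submitters' processing notes. The version of RMA and its probe sets' definitions are not stated in these sources. RMA compresses differences near background, and the number of arrays limits precision. Array medians lay between 6.88 and 6.97, so values were used as deposited.

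Of 45101 probe sets 64 controls were left out. Names came from the platform annotation: 34958 probe sets had 1 symbol, 932 several and 9211 none. The comparison used R 4.3.3 and limma 3.58.1 (lmFit, then eBayes, a two-sided test with no covariate and no filter on low values), with Benjamini-Hochberg adjustment over all 18193 genes, or over all 45037 probe sets where a second probe set is described. All 37 measured genes exceeded the median of all values on at least 1 array, though Oas3 did so only in lymphomas 1 and 2. Differences are lymphoma minus wild type. The chosen probe sets of 13 genes carry a suffix for possible matches to several transcripts. The test was tried on simulated data. Some items are not reported here. The genes, lists and tests were chosen with earlier results of these data known. Every measured gene is named. Array values are given for called genes, the 4 largest rises and falls, the widest spreads, Irf7, Stat2, Ifit1 and the GBPs. In other pathway lists the 2 largest differences are named, plus Ifnb1, Ifng, Ifnar1, the other GBPs and the negative or barely changed genes of the interferon gamma list. Alternatives were a dim filter, other normalizations, other eBayes priors, a test with unequal variances, array weights, a replicate block, covariates (18S or erythroid level), other choices of probe set, and fits without single arrays or without lymphomas 1 and 2. Replicate numbers did not pair samples: deviations of same-numbered arrays correlated at 0.12, -0.20, 0.14 and 0.0041. Sequences came from RefSeq (GRCm38.p6). Figures used matplotlib 3.10.9 in Python 3.11.15.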

Additional observations from a re-analysis of the deposited data

Results flagged for a closer look

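A single array lay far from the rest of its group in 3 genes, a screen in which chance flags about 1 in 20 groups and which covered 78 groups. Irf7 was at 8.93 in lymphoma 2, under the other 4 lymphomas, the nearest of which was at 9.15. Oas2 was at 9.13 in lymphoma 1, above the next lymphoma at 8.14. Rsad2 was at 9.90 in wild-type spleen 1, above the next wild-type spleen at 9.00. That spleen also had the highest erythroid marker level among the wild-type spleens. The other Rsad2 probe sets disagree on this array. By one it was at 6.24, inside the range of the other wild-type spleens (5.94 to 6.26). By the other it was the highest, at 7.36 against 6.58 to 6.91.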

How the results depend on the processing

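Besides Adar, no gene changed its side of the threshold in any alternative, and 12 of the 37 changed sign in at least 1, none of them called. Adar was not called after a second quantile normalization (difference -0.58, limma adjusted p 0.0510), with an unequal-variance test (-0.61, 0.160), the 18S level (-0.51, 0.239) or the mean of all probe sets (-0.38, 0.0689), and with the replicate block, where the replicate number is a term and lymphoma 5 has no partner (-0.66, 0.196). In each of these 5 the number of ISGs called was 0. The number of ISG probe sets called was 1 as reported and 0 after quantile normalization, with an intensity trend, the unequal-variance test, the replicate block, the 18S level or the erythroid level; it was 2 with array weights and without lymphomas 1 and 2. The number of genes called was 130, but 532 with array weights, 0 with the unequal-variance test (2384 at an unadjusted p under 0.05), 7 with the replicate block, 14 with the 18S level and 601 without lymphomas 1 and 2. The number of probe sets called was 219, and in the same 5 settings 821, 0 (5463 at an unadjusted p under 0.05), 5, 0 and 935. With 1 array left out these counts ran from 10 (without wild-type spleen 2) to 328 (without lymphoma 2) for genes, 0 to 530 for probe sets and 0 to 1 for both ISG counts. The median GBP difference was 0.76, 0.20 with the 18S level and between 0.52 and 0.90 with 1 array left out. Signs turned for Irf7 (0.022 after quantile normalization, 0.084 with array weights, 0.13 with the 18S level, 0.058 with the erythroid level, 0.049 without lymphomas 1 and 2; -0.076 to 0.078 with 1 array left out), Eif2ak2 (-0.011 with array weights, -0.12 with the mean of probe sets; -0.046 to 0.18), Xaf1 (0.0094 with array weights), Herc6 (0.036 with the replicate block; -0.34 to 0.036) and Zbp1 (-0.17 with the 18S level, -0.085 with single-transcript probe sets). They also turned for Oas2 (0.071 with the 18S level; -0.27 to 0.052), Mx1 and Rtp4 (0.21 and 0.038 with the 18S level), Cmpk2 (-0.044 with the erythroid level, -0.072 without lymphomas 1 and 2), Parp14 (0.0017 and 0.024 in those settings), Dhx58 (0.015 with the mean of probe sets; -0.10 to 0.062) and Ddx58 (-0.23 to 0.013). Why values moved was not tested.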

Other observations

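Wild-type spleens 1 and 2 differed from 3 and 4 on some probe sets, which was noticed after the values were seen. Trim30a stood at 10.86 and 11.07 in wild-type spleens 1 and 2 and at 12.03 and 12.08 in 3 and 4, and Gbp8 at 9.46 and 9.38 in the first pair and 10.17 and 10.07 in the other. The split was wider in related genes outside the 39. Trim12a stood at 4.71 in lymphoma 4 and 8.89 to 9.79 in the other lymphomas, against 6.38 and 4.46 in wild-type spleens 1 and 2 and 10.90 and 10.74 in 3 and 4. Trim34a stood at 7.10 in lymphoma 4 and 9.89 to 11.15 in the other lymphomas, against 8.42 and 7.35 in the first pair and 12.44 and 12.38 in the other. Apobec3 stood at 8.72 in lymphoma 4 and 10.94 to 11.62 in the other lymphomas, against 9.50 and 8.67 in the first pair and 11.08 and 11.20 in the other. Lymphoma 4 was thus on the side of the lower pair in these 3, and for Trim30a it was the lowest array, at 10.44. It was not so for Gbp8 or for Gbp7, where the wild-type spleens were split likewise. There lymphoma 4 stood at 10.30 and 10.33, above every wild-type spleen. Gbp2b was at 8.62 in lymphoma 1 and between 6.64 and 6.85 in the other lymphomas, against 6.37 to 6.63 in wild-type spleens.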
